A study of Mus musculus with 7 samples.

Results

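Bone marrow carrying the hashtags HRO.7 to HRO.12 was compared with bone marrow carrying the hashtags HRY.4 to HRY.6. A hashtag is an oligo-tagged antibody that marks every cell of 1 sample before samples are mixed and run together. The 6 HRO and 3 HRY samples were found by their hashtag names. The hashtags HRO.5 and HRO.6 carry the prefix too but were set aside as chronic samples. They are not meant by HRO below, and some of their values are given at the end. Of the 43024 cells kept in the series, 22220 belonged to the samples compared, 17397 to HRO and 4823 to HRY. Mouse marrow was taken from spine, hips and leg bones, red cells were lysed, and single-cell RNA was read with a 3′ droplet kit in 7 libraries that make up 4 pools. The series concerns inflammation and tumour plasticity in myeloid transformation, but what the prefixes HRO, HRY, WTO and WTY stand for, and the genotype, strain, treatment, time and age of these mice, go unstated in the sources used here. The prefixes are therefore used as names only. Nothing in the labels ties 1 hashtag to 1 animal, and p-values thus reflect the spread among hashtags, which may be technical.

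The myeloid cells of the marrow begin as progenitors that make the enzymes of primary granules, such as myeloperoxidase and elastase, and pass through immature stages filled with secondary granule proteins before they leave as neutrophils, or turn into monocytes. Type I interferons switch on a shared set of antiviral genes in almost any cell. Interferon gamma induces GTPases and the chemokine Cxcl9. A separate acute phase and NF-kB programme, driven by cytokines and microbial products, raises proteins such as serum amyloid A3 (Saa3) and lipocalin 2 (Lcn2).

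Only 1 pool held both groups. HRY.4 was run in pool WBM_1, HRO.7, HRO.8 and HRO.9 in WBM_2, HRY.5, HRY.6 and HRO.10 in WBM_3, and HRO.11 and HRO.12 in WBM_4. A model with group and pool as terms, fitted on all samples of the series' groups, therefore drew its HRO to HRY difference largely from HRO.10 against HRY.5 and HRY.6, and from the WTO and WTY samples (4 and 3) that link the pools. HRO.7 and HRO.8 differed from each other between libraries by about as much as HRO.7 differed from itself (mean chi-square per gene in monocytes 1.78 and 1.80, against 26.3 for HRO.7 and HRO.9). Mature neutrophils were the exception, at 1.79 and 1.37, against 6.40 for HRO.7 and HRO.9. The pair was counted as 1 sample, HRO.7+8, whose level is the mean of both, which leaves 5 HRO and 3 HRY samples. Their shares of cells did differ, with monocytes at 31.7% of HRO.7 and 17.8% of HRO.8.

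The 9 samples held 1106 (HRY.5) to 5530 (HRO.7) cells, 4810524 (HRY.5) to 56015664 (HRO.7) UMIs and a median of 2252 to 8428.5 UMIs per cell, with every HRO median above every HRY median. Ddx3y, a gene of the Y chromosome, stood at 45.6 to 73.8 CPM, the count of a gene scaled to the usual common total, in all 3 HRY samples and at 51.5 in HRO.9, against 0.0751 to 2.38 in the other HRO samples. Ddx3y status thus moved with the groups, and counts from a fit that includes it are given at the end. S100a8, a neutrophil gene, reached 17010 CPM in the B lineage cells of HRY.4, against 275 in HRY.5 and 1101 in HRY.6. Whether free RNA, mixed cells or the gate gave this value was not tested. Cells were put into 15 classes by marker genes, and progenitors, neutrophils, monocytes, lymphocytes and a few erythroid cells were all present. Clusters of the cells, made without the gate, followed the pools, and 13 of 35 drew over 90% of their cells from 1 pool. All levels below are a gene's UMIs in CPM of the summed cells of a sample and class.

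Monocytes had more genes called than any other class. Saa3, a secreted acute phase protein of macrophages, Ifitm1, a membrane protein that hinders virus entry, Cd38 and Bst1, a pair of neighbouring genes for enzymes that consume NAD, and Clec4e, a lectin receptor for microbial glycolipids, were higher in every HRO sample than in any HRY sample. Padi2, which converts arginine to citrulline in proteins, and Sulf2, which trims heparan sulfate, were lower in every HRO sample. Of 9802 genes tested, 400 (4.08%) passed an adjusted p of 0.05, 264 higher in HRO (2.69%) and 136 lower (1.39%). In 136 of the 264 and 59 of the 136 the groups did not overlap, against 5.58% and 3.66% of all genes tested lying wholly above or below. Between WTO and WTY edgeR's quasi-likelihood test called 0 of these genes (0.0%), with 370 at an unadjusted p under 0.05. The difference between the differences passed for 104 genes (1.06%).

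Saa3 (chr7:46711998-46715700, minus strand, mm10) stood at 1214 CPM in HRO.7+8, 373 in HRO.9, 842 in HRO.10, 377 in HRO.11 and 806 in HRO.12, against 17.6 in HRY.4, 3.17 in HRY.5 and 4.82 in HRY.6. Every HRO sample lay above every HRY sample, and above the WTO and WTY samples, which ran from 0 to 39.4 CPM. The log2 difference was 7.54 ± 0.72 (SE), with an adjusted p of 4.995e-05 from edgeR's quasi-likelihood test. It remained past the threshold with no pool term and HRO.10 left out, at 6.24 with an adjusted p of 0.00767. With HRO.10 left out and the pool term kept, it was 4.25 with an adjusted p of 0.823, and 0 of the 34 called monocyte genes described here kept their call.

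Ifitm1 (chr7:140967221-140969825) reached 630 CPM in HRO.7+8, 197 in HRO.9, 210 in HRO.10, 276 in HRO.11 and 446 in HRO.12, against 18.4, 6.34 and 6.75 in HRY.4, HRY.5 and HRY.6. The log2 difference of 5.07 ± 0.54 (adjusted p = 7.969e-05) came without overlap. Socs3, the feedback inhibitor of cytokine signalling through Stat3, stood at 29.3 CPM in HRO.7+8, 32.3 in HRO.9, 44.8 in HRO.10, 40.1 in HRO.11 and 83.7 in HRO.12, against 2.29, 1.58 and 0.965 in the HRY samples. Its log2 difference was 5.06 ± 0.62 (adjusted p = 0.000274), with HRO.12 the highest sample and no overlap.

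Cd38 (chr5:43868553-43912375) stood at 50.4 CPM in HRO.7+8, 57.5 in HRO.9, 103 in HRO.10, 35.0 in HRO.11 and 54.6 in HRO.12, against 3.82 in HRY.4 and 0 in HRY.5 and HRY.6 (log2 6.60 ± 0.65, adjusted p = 6.108e-05). With HRO.10 left out and the pool term kept, the fitted difference of Cd38 was -2.08, although every other HRO sample lay above every HRY sample. With no pool term and HRO.10 left out, it was 5.33 and Cd38 kept its call. Bst1, which lies just upstream of it at chr5:43818885-43843986, stood at 82.8, 80.3, 105, 87.0 and 76.5 CPM in HRO.7+8, HRO.9, HRO.10, HRO.11 and HRO.12 and at 19.1, 15.8 and 17.4 CPM in HRY.4, HRY.5 and HRY.6 (log2 2.66 ± 0.25, adjusted p = 4.995e-05). Bst1 varied little among the HRO samples. Its difference also differed from that between WTO and WTY, by 3.40 on the log2 scale (adjusted p = 3.042e-05). The WTO samples, at 8.88 to 22.1 CPM, lay below the WTY samples, at 34.02 to 37.17 CPM. The direction was thus opposite to that of HRO and HRY. The HRY samples lay below every WTY sample as well, so the 3.40 does not rest on the HRO levels alone. F11r, a junctional adhesion molecule, was called as well, at 12.9 to 86.1 CPM in HRO and 0 to 1.58 in HRY, with HRO.10 the highest.

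**Figure D1:**
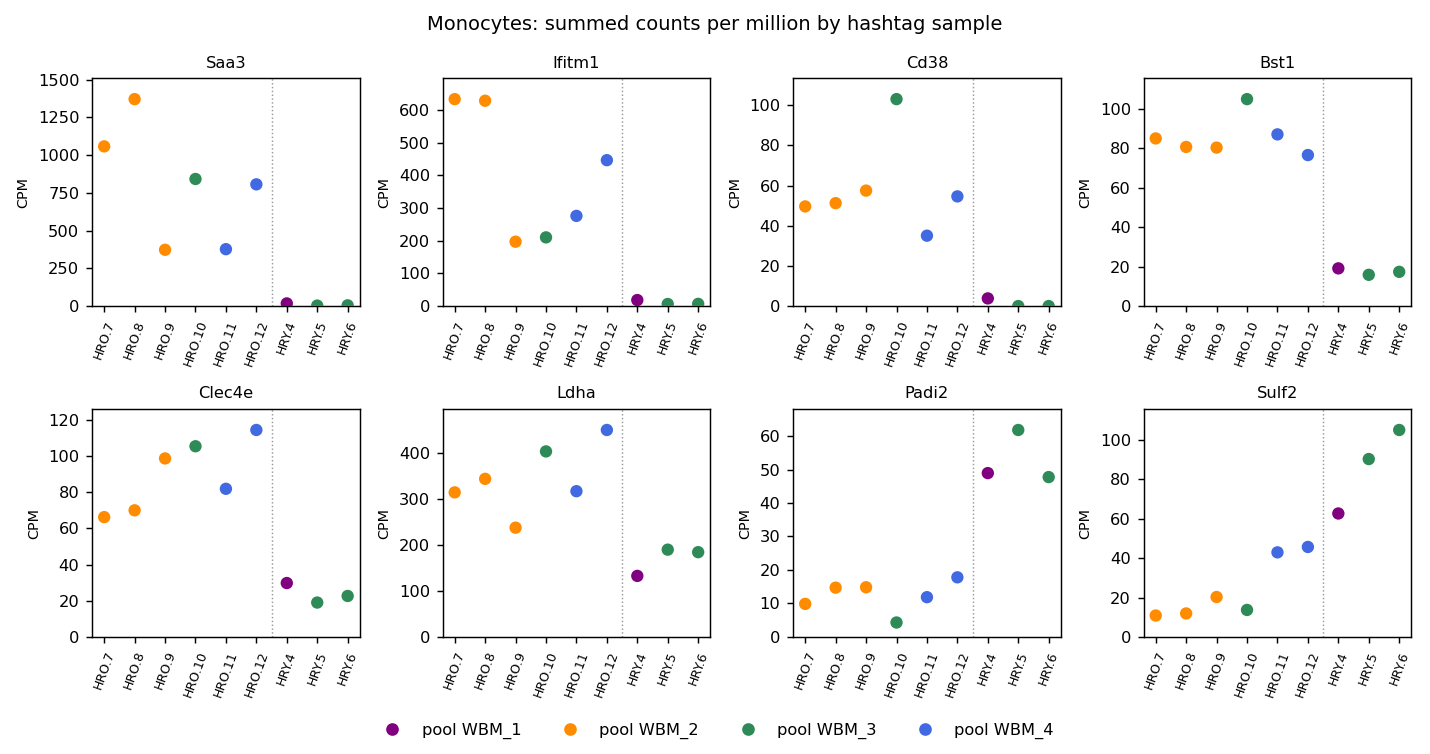
Levels (CPM) of 8 genes in the summed monocytes of each hashtag sample, 1 point per hashtag on linear axes that start at 0, coloured by pool, with no error bar because each point is 1 sample. In 6 panels every HRO point lies above every HRY point (Saa3 373 CPM or more, counting HRO.7 and HRO.8 as their mean, against 17.6 or less), and in the panels of Padi2 and Sulf2 every HRO point lies below.

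Some targets of NF-kB were higher. Of 28 genes of that list tested in monocytes 4 were called higher and none lower, against 2.69% and 1.39% of all genes tested. The list's median log2 was 0.68, against -0.02 over all genes tested. Clec4e stood at 68.2, 98.8, 106, 82.0 and 114 CPM in HRO.7+8, HRO.9, HRO.10, HRO.11 and HRO.12, against 29.8, 19.0 and 22.7 CPM in HRY (log2 2.31 ± 0.30, adjusted p = 0.000395). Bcl3, an inhibitor-like partner of NF-kB, stood at 35.0 to 58.7 CPM in HRO and 14.3 to 17.8 in HRY (log2 1.81, adjusted p = 0.00322). Il1b, the cytokine interleukin-1 beta and here also a gate marker of mature neutrophils, stood at 11.6 to 55.8 CPM against 5.79 to 9.51 (log2 3.004, adjusted p = 0.00323). Neither gene overlapped between the groups, although Il1b was not called with no pool term and HRO.10 left out (adjusted p = 0.062).

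Of the cytokine and chemokine receptors, 5 of 25 tested were called higher and 2 lower, against 2.69% and 1.39% of all genes tested. Il4ra, which binds interleukin-4 and interleukin-13, stood at 65.7, 71.1, 103, 52.0 and 61.7 CPM in HRO.7+8, HRO.9, HRO.10, HRO.11 and HRO.12, against 20.6, 20.6 and 29.9 CPM in HRY (log2 1.97, adjusted p = 0.000274). Csf2rb, the shared beta chain of the receptors for GM-CSF, interleukin-3 and interleukin-5, ranged from 200 to 301 CPM in HRO and from 80.3 to 161 in HRY (log2 1.05, adjusted p = 0.00308). The ligand Cd274 (PD-L1), which restrains T cells, ranged from 6.53 to 20.4 CPM against 0 to 3.06 (log2 3.31, adjusted p = 0.0132). All 3 genes lay wholly above in HRO.

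Genes that break down glucose were higher as well. Of 21 members of the glycolysis and hypoxia list tested 11 were called higher, against 2.69% of all genes tested. None was called lower, and the median log2 was 0.76. The summed level of the list was 5352 CPM in HRO.7+8, 4735 in HRO.9, 6132 in HRO.10, 5318 in HRO.11 and 6252 in HRO.12, against 2825, 3294 and 3652 in HRY.4, HRY.5 and HRY.6, with no overlap. Ldha, which turns pyruvate into lactate, stood at 238 to 451 CPM in HRO and 133 to 190 in HRY (log2 1.16 ± 0.20, adjusted p = 0.00459). Pkm, the pyruvate kinase, stood at 694 to 915 CPM against 411 to 525 (log2 0.76, adjusted p = 0.00308). Leaving out the pool term and HRO.10, 5 of the 21 were called.

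The acute phase and alarm proteins had 9 of 16 members called higher (median log2 1.08), against 2.69% of all genes tested, and none lower. These included Saa3 and Ifitm1, but also neutrophil products that overlapped between the groups. Lcn2, which withholds iron from bacteria, stood at 186, 643, 670, 914 and 694 CPM in HRO.7+8, HRO.9, HRO.10, HRO.11 and HRO.12, and at 467, 103 and 130 CPM in HRY.4, HRY.5 and HRY.6 (log2 2.39, adjusted p = 0.00135). S100a8, a calcium-binding alarmin, ranged from 2454 to 6880 CPM in HRO and from 856 to 10770 in HRY, where HRY.4 was the highest of all 8 samples. S100a8 was called higher, but its log2 difference was -0.26 with no pool term. A list of 10 abundant neutrophil transcripts, kept as a measure of free RNA, had 4 members called higher, and its sum ranged from 16939 to 31801 CPM in the HRO samples and from 16252 to 43136 CPM in the HRY samples. Its part in these acute phase values was not tested.

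Some granule genes that progenitors make were higher in HRO monocytes. Of 9 primary granule genes tested 3 were called higher and none lower, against 2.69% and 1.39% of all genes tested. Ctsc, the protease that activates granule enzymes, stood at 1218, 616, 1130, 565 and 588 CPM in HRO.7+8, HRO.9, HRO.10, HRO.11 and HRO.12, against 284, 322 and 416 CPM in HRY (log2 1.70 ± 0.26, adjusted p = 0.00212). Prtn3 (proteinase 3) stood at 970 to 1209 CPM in HRO against 405 to 598 in HRY, and Ms4a3, a surface protein of granulocyte and monocyte progenitors, at 38.5 to 91.8 against 12.7 to 30.4. Both are gate markers of progenitors, so their level depends on where the gate was set. With classes taken from clusters instead of the gate they stood at -0.18 and -0.13 on the log2 scale.

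The genes lower in HRO monocytes included several with no overlap. Padi2 stood at 12.3 CPM in HRO.7+8, 14.8 in HRO.9, 4.31 in HRO.10, 11.9 in HRO.11 and 17.8 in HRO.12, against 48.9, 61.8 and 47.7 in HRY.4, HRY.5 and HRY.6 (log2 -3.36 ± 0.34, adjusted p = 6.429e-05). Sulf2 stood at 11.4, 20.3, 13.7, 43.0 and 45.7 CPM in the same HRO order, against 62.7, 90.3 and 105 (log2 -2.35, adjusted p = 0.0022). HRO.11 and HRO.12 were the closest to HRY for Sulf2 but remained below it. Stxbp6, which binds the syntaxins of vesicle fusion, Mtss1, a scaffold that bends membranes, and Upb1, an enzyme of pyrimidine breakdown, fell by 2.79, 2.39 and 3.54 on the log2 scale with adjusted p of 0.00319, 0.00547 and 0.00237. Upb1 was no longer called with no pool term and HRO.10 left out (adjusted p = 0.0863).

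Some transcription factors and markers of monocytes and dendritic cells were also lower. Irf4, which directs dendritic cells and is a gate marker of them, stood at 0.565 to 5.93 CPM in HRO and 7.92 to 11.1 in HRY (log2 -2.68, adjusted p = 0.04). Cd209a, a lectin of monocyte-derived dendritic cells and likewise a gate marker, stood at 0.0238 CPM in HRO.7+8, 0.503 in HRO.9, 0 in HRO.10, 2.83 in HRO.11 and 1.19 in HRO.12, against 32.9, 14.3 and 21.2 CPM in HRY (log2 -4.39, adjusted p = 0.0152). In WTO.5 and WTO.6, of the same pool as HRO.11 and HRO.12, Cd209a was also low, at 3.68 and 0 CPM. It ranged from 14.3 to 68.1 CPM in the other WTO and WTY samples. The summed level of the 10 dendritic markers in monocytes overlapped, at 268 to 599 CPM in HRO and 346 to 607 in HRY. Irf8 and Klf4, both needed to make monocytes and the latter a gate marker of them, were called lower by 0.78 (adjusted p of 0.0273 and 0.0124), but HRY.4 lay within the HRO range for Irf8 and below it for Klf4. In the whole list of lineage transcription factors 2 of 22 were higher and 3 lower, against 2.69% and 1.39% of all genes tested.

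The monocytes of the samples sat in different clusters. HRO.7 and HRO.8 fell in clusters 11 and 12, HRY.4 mainly in 10 and 20, and the other samples of both groups mainly in 0 and 2. Without HRO.10 the contrast had no pool in common and 1 gene was called, whereas leaving out both the pool term and HRO.10 gave 283, of which 126 were among the 400. Of the 396 of the 400 tested in that way, 389 kept their direction.

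Interferon genes showed a second pattern, in which the HRO samples were split. The type I interferon list was highest in HRO.10 and HRO.7+8, lower in HRO.9, and at the level of HRY in HRO.11 and HRO.12. In mature neutrophils its summed level was 9073 CPM in HRO.7+8, 5275 in HRO.9, 12020 in HRO.10, 1553 in HRO.11 and 1131 in HRO.12, against 1191, 2372 and 2443 in HRY.4, HRY.5 and HRY.6. In monocytes it was 4047, 3809, 6136, 889 and 998 CPM in the same HRO order, against 2327, 1818 and 1837. HRO.11 and HRO.12, both of pool WBM_4, lay below all HRY monocytes, while the other 3 lay above.

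HRO.10, the highest, is also the HRO sample that shares a pool with HRY. The counts of members called higher were 18 of 25 tested in mature neutrophils (median log2 2.39, against -0.07 over all genes), 17 of 27 in monocytes (1.61), 14 of 26 in immature neutrophils (3.16) and 6 of 24 in progenitors (2.19). Of all genes tested, 1.2%, 2.69%, 0.665% and 0.314% were called higher in these classes. None was called lower in these classes. With no pool term and HRO.10 left out, none was called higher in either neutrophil class or in progenitors, and 1 was called higher and 1 lower in monocytes. In T or NK cells 0 of 11 and in B lineage cells 0 of 13 were called.

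**Figure D2:**
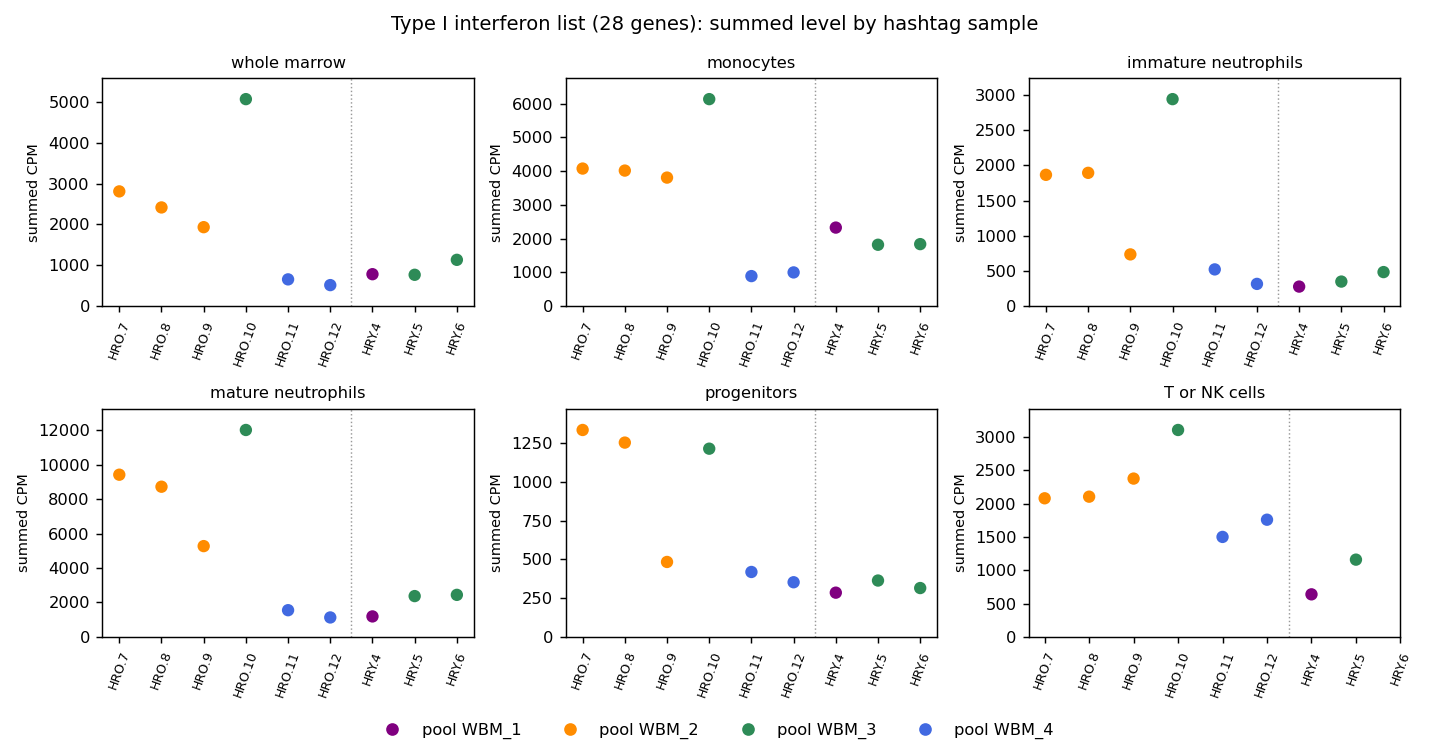
Summed level (CPM) of the 28 genes of the type I interferon list, 1 point per hashtag sample on linear axes that start at 0, in whole marrow and 5 classes, coloured by pool; HRY.6 has no point for T or NK cells, where it held under 20 cells. In whole marrow, monocytes, both neutrophil classes and progenitors HRO.10, HRO.7 and HRO.8 are the 3 highest HRO points, HRO.9 follows, and HRO.11 and HRO.12 lie close to the HRY points or, in monocytes, below them.

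Single members mostly showed the same order. Ifit1, which binds foreign RNA, stood in mature neutrophils at 177 CPM in HRO.7+8, 116 in HRO.9, 573 in HRO.10, 20.4 in HRO.11 and 14.4 in HRO.12, against 13.7, 56.6 and 22.4 in HRY.4, HRY.5 and HRY.6 (log2 4.02 ± 0.41, adjusted p = 3.379e-05). The groups overlapped, with HRO.11 and HRO.12 among the HRY samples. In monocytes Oas3, a synthase of the 2′-5′ oligoadenylates that activate RNase L, stood at 63.6, 59.7, 140, 8.48 and 14.8 CPM in HRO.7+8, HRO.9, HRO.10, HRO.11 and HRO.12, against 26.8, 34.9 and 29.4 (log2 2.13, adjusted p = 7.969e-05). Oas2 and Oasl2 of the same family were called too, at log2 2.94 and 1.95. For Oas2 the order differed, with HRO.9 at 28.2 CPM above HRO.7+8 at 15.9. Zbp1, a sensor of left-handed nucleic acids, was the member of the list that stood wholly above in HRO monocytes, at 68.8 to 230 CPM against 41.2 to 59.3 (log2 2.09, adjusted p = 0.000886).

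Genes known for interferon gamma were highest in HRO.7+8 rather than HRO.10. Their summed level in monocytes was 2983 CPM in HRO.7+8, 309 in HRO.9, 832 in HRO.10, 708 in HRO.11 and 224 in HRO.12, against 219, 176 and 253 in HRY. Cxcl9, a chemokine for T cells, stood at 332 CPM in HRO.7+8, 2.76 in HRO.9, 18.6 in HRO.10, 40.1 in HRO.11 and 0.593 in HRO.12, and at 0, 0 and 0.482 in HRY. HRO.7+8 stood far above the rest, and HRO.12 and HRY.6 rest on 1 UMI each, so that their order cannot be read. Cxcl9 (log2 5.89 ± 3.60, adjusted p = 0.428) and the GTPase Iigp1 (log2 4.59 ± 2.21, adjusted p = 0.291) did not pass. Of 17 members tested 2 were called higher in monocytes, Cd274 and Irgm1, against 2.69% of all genes tested. None was called higher in either neutrophil class or in progenitors.

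The 250 bases upstream of the RefSeq start (GRCm38.p6) were searched on either strand for the letters GAAA, any 2 bases and GAAA again, a repeat bound by interferon regulatory factors. It was present in 3.06% of 27025 windows, in 10 of 20 windows found for the 28 type I interferon genes (50.0%), in 11 of 15 for the interferon gamma list (73.3%), in 1 of 16 for the acute phase list (6.25%) in 0 of 20 for the glycolysis list and in 4 of 20 for ribosomal proteins (20%). The letters TTC, any 3 bases and GAA, a palindrome, were present in 7.11% of all windows in 3 of 20 type I interferon windows (15.0%), in 7 of 15 of the interferon gamma list (46.7%), in 2 of 16 of the acute phase list (12.5%), in 0 of 20 of the glycolysis list and in 2 of 20 for ribosomal proteins (10.0%). Where the motifs overlap or repeat, a window was counted once. RefSeq's Saa3 start lies inside the GENCODE span given above. Of 9 windows found for single genes, the 3 with a match are shown, with the match in capitals: Ifit1 of the split pattern, and Saa3 and Socs3 of the shared one. Irf7, Oasl2, Ifitm1, Cd38, Bcl3 and Cxcl9 held neither motif in their windows. The Ifit1 window lies at chr19:34640639-34640888 on the plus strand and holds 2 copies of the interferon motif on the opposite strand, the Saa3 window at chr7:46715677-46715926 on the minus strand holds 1 copy, and the Socs3 window at chr11:117969367-117969616 on the minus strand holds 1 palindrome.
Ifit1: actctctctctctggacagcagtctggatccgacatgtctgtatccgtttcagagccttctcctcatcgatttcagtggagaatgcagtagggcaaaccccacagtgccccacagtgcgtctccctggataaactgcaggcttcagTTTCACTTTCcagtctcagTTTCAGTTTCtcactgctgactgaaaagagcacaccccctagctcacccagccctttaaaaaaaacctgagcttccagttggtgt
Saa3: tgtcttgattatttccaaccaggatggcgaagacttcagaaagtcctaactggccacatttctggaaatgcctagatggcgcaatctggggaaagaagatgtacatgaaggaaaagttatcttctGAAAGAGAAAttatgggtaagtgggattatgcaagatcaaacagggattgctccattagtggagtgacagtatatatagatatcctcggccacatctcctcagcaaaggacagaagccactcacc
Socs3: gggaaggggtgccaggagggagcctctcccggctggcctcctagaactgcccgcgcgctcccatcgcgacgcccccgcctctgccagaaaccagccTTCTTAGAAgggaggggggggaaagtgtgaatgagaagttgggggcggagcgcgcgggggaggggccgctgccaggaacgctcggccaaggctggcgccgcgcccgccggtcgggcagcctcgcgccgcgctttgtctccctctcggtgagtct
A match describes the letters of the window and does not show that a factor is bound there.

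Immature neutrophils, which fill their secondary granules, had few calls, mostly in HRO. Of 9471 genes tested 75 (0.792%) were called, 63 higher (0.665%) and 12 lower (0.127%). The difference from the one between WTO and WTY passed for 8 genes (0.0845%). In 21 of the 63 every HRO sample lay above every HRY sample, against 2.57% of all genes tested, and in 0 of the 12 every one lay below (1.7%). HRO.10 was the highest HRO sample for 54 of the 63.

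The calls included interferon genes and 3 of 18 members of the list of major histocompatibility (MHC) class I, which presents peptides to T cells, against 0.665% of all genes called higher. Rtp4, an interferon-induced chaperone, stood at 85.3 CPM in HRO.7+8, 22.9 in HRO.9, 115 in HRO.10, 16.4 in HRO.11 and 8.13 in HRO.12, against 2.11, 4.78 and 6.42 in HRY.4, HRY.5 and HRY.6 (log2 4.38 ± 0.61, adjusted p = 0.00227). Xaf1 and Irf7, the latter the factor that amplifies the interferon response, also stood wholly above, at 9.94 to 96.5 CPM against 2.65 to 7.59 and at 12.96 to 75.5 against 3.18 to 6.42. Ifit1 (log2 4.51, adjusted p = 0.0113) and Oas3 (log2 2.80, adjusted p = 0.00227) were called but overlapped. H2-D1 stood at 1380, 630, 1244, 1399 and 826 CPM in HRO.7+8, HRO.9, HRO.10, HRO.11 and HRO.12, against 339, 404 and 519 CPM in HRY (log2 1.47, adjusted p = 0.0183). HRO.11 was the highest sample for H2-D1, although it was near HRY for the interferon list. H2-K1 ranged from 350 to 1550 CPM against 162 to 325 (log2 2.17, adjusted p = 0.0416), and reads of these near-identical genes may be split between copies.

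Lrg1, a secreted glycoprotein of the acute phase, stood in immature neutrophils at 402, 560, 599, 492 and 468 CPM in HRO.7+8, HRO.9, HRO.10, HRO.11 and HRO.12, against 256, 235 and 306 CPM in HRY (log2 0.98 ± 0.20, adjusted p = 0.0245). Ifitm3, which blocks virus fusion, ranged from 623 to 3042 CPM against 266 to 485, Clec4e from 32.7 to 81.8 against 13.3 to 29.8, and Bcl3 from 8.44 to 27.6 against 1.06 to 5.84. Klf2, a factor of quiescence and migration, stood at 431, 501, 245, 467 and 502 CPM in HRO.7+8, HRO.9, HRO.10, HRO.11 and HRO.12, against 78.1, 103 and 140 in HRY (log2 0.97, adjusted p = 0.0221). All 5 genes were called and stood wholly above in HRO. HRO.10 was the lowest HRO sample for Klf2, and the log2 difference was 2.32 (adjusted p = 0.0117) with no pool term and HRO.10 left out. Saa3 reached 3.01 to 44.4 CPM in HRO and 1.06 to 1.75 in HRY, wholly above but not called (adjusted p = 0.136).

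Tspan2, a membrane tetraspanin, Igfbp4, which binds insulin-like growth factors, and Mogat2, an enzyme of fat synthesis, were called lower in HRO immature neutrophils. Tspan2 ranged from 17.2 to 23.9 CPM in HRO and stood at 22.8, 53.6 and 45.6 in HRY.4, HRY.5 and HRY.6 (log2 -1.06, adjusted p = 0.0154). HRY.4 lay within the HRO range for each of Tspan2, Igfbp4 and Mogat2 or, for Mogat2, below it. Csf1r and Ctss, gate markers of monocytes, were called higher with HRO.10 alone high (27.6 and 74.1 CPM, against 2.92 to 3.72 and 3.01 to 13.1 in the other HRO samples). HRY.4 held Ctss at 34.2 CPM. The log2 differences of Csf1r and Ctss were -0.69 and -1.08 with no pool term and HRO.10 left out, and that setting called 18 genes in all. Immature neutrophils of HRO.7 and HRO.8 lay in clusters 5 and 25, those of HRY.4 mainly in 9 and 22, and the rest mainly in 3, 6 and 8.

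Mature neutrophils showed 106 calls in 6025 genes tested (1.76%), 72 higher (1.2%) and 34 lower (0.564%), and 1 gene (0.0166%) differed from the WTO to WTY difference. In 24 of the 72 every HRO sample lay above every HRY sample, against 2.44% of all genes, and in 8 of the 34 every one lay below, against 5.98%. The higher genes were led by the interferon list described above: Rtp4 (log2 1.81), Xaf1 (4.30) and Irf7 (3.26) were called and overlapped. Without HRO.10 the fitted difference of Xaf1 was -3.53. With the pool term left out as well it was 3.20, and Xaf1 was not called. The granule and acute phase genes Lcn2 and Lrg1 were wholly above. Lcn2 stood at 8460 CPM in HRO.7+8, 6644 in HRO.9, 7819 in HRO.10, 9619 in HRO.11 and 9172 in HRO.12, against 4709, 2407 and 3400 in HRY.4, HRY.5 and HRY.6 (log2 1.23 ± 0.29, adjusted p = 0.0349). Lrg1 stood at 473, 1114, 992, 473 and 611 CPM in the same HRO order, against 246, 252 and 237 (log2 1.88, adjusted p = 0.0218).

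Ifitm3 (1088 to 4332 CPM against 488 to 976), Ifitm6 (2288 to 3366 against 707 to 2117) and Upp1, the uridine phosphorylase (61.4 to 544 against 4.56 to 14.2), were called and wholly above in HRO as well. Upp1 was near the floor in HRY.4, whose mature neutrophils held 219164 UMIs. Ngp, a secondary granule protein, was called at log2 1.67 (adjusted p = 0.0284), but HRY.4 at 4868 CPM lay above HRO.9 at 4086. Of the secondary and tertiary granule genes 4 of 18 were called higher, against 1.2% of all genes tested. Of these 4, 2 genes, Lcn2 and Ngp, are gate markers of immature neutrophils. In HRY.5 and HRY.6 the summed neutrophil transcripts were 165755 and 207476 CPM, against 234492 to 361961 in HRO and 472129 in HRY.4. The part of maturation stage within the gate in these differences was not tested.

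**Figure D3:**
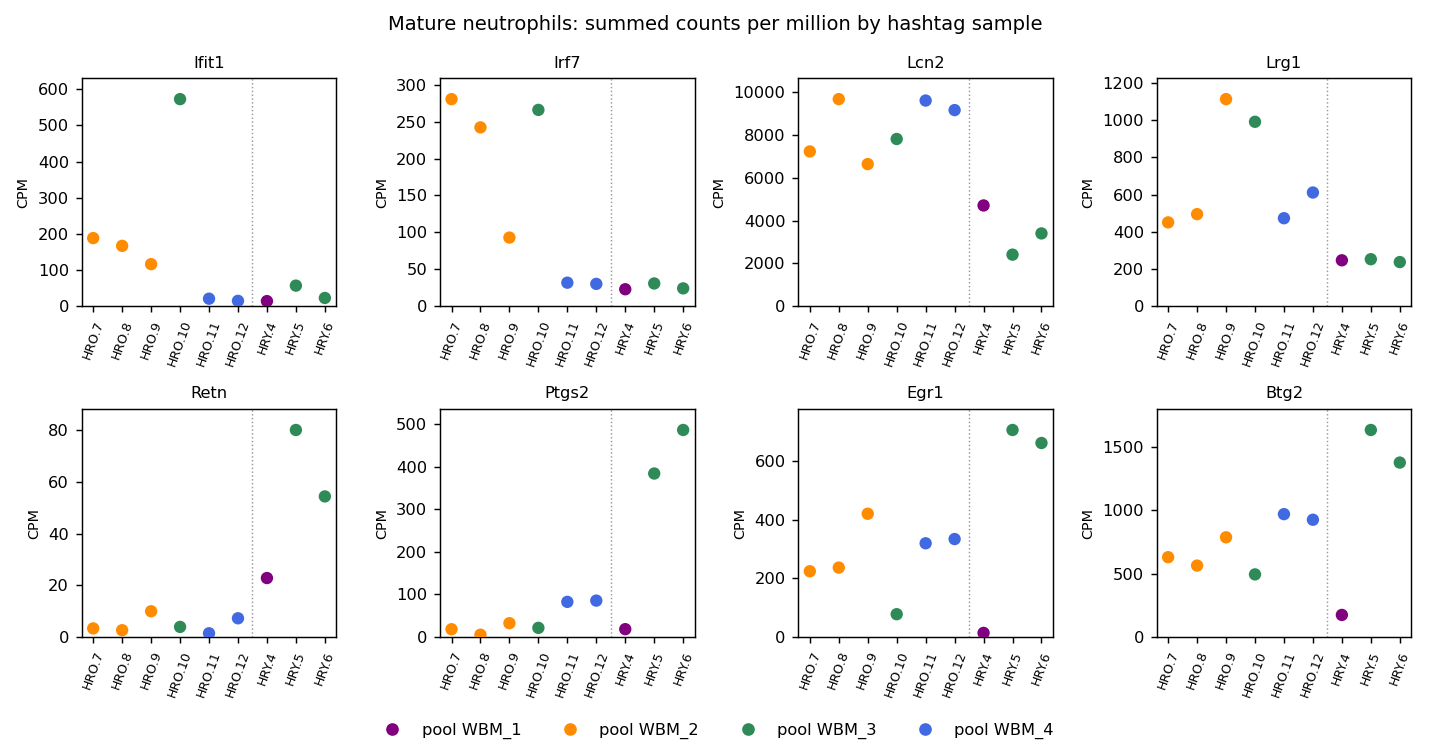
Levels (CPM) of 8 genes in the summed mature neutrophils of each hashtag sample, 1 point per hashtag on linear axes that start at 0, coloured by pool. Lcn2 and Lrg1 stand higher in every HRO sample and Retn lower; Ifit1 and Irf7 are high in HRO.7, HRO.8, HRO.9 and HRO.10 only; Ptgs2, Egr1 and Btg2 are high in HRY.5 and HRY.6 but low in HRY.4.

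Retn, the hormone resistin, was lower throughout, at 2.95, 9.95, 3.88, 1.41 and 7.22 CPM in HRO.7+8, HRO.9, HRO.10, HRO.11 and HRO.12, against 22.8, 80.2 and 54.4 CPM in HRY.4, HRY.5 and HRY.6 (log2 -3.54 ± 0.71, adjusted p = 0.0133). It was also called with no pool term and HRO.10 left out (log2 -2.92, adjusted p = 0.0134). Mcfd2, which helps carry proteins out of the endoplasmic reticulum, ranged from 5.82 to 14.4 CPM against 22.8 to 48.0 (log2 -2.89, adjusted p = 0.0433), also with no overlap.

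Immediate early genes switch on within minutes of a stimulus or of cell handling. They had 4 of 22 members called lower, against 0.564% of all genes tested, and none higher (median log2 -0.61). They separated HRY.5 and HRY.6 from HRY.4. Egr1 stood at 231, 421, 77.7, 320 and 334 CPM in HRO.7+8, HRO.9, HRO.10, HRO.11 and HRO.12, against 13.7 in HRY.4, 707 in HRY.5 and 663 in HRY.6 (log2 -2.96 ± 0.41, adjusted p = 0.00129). Ptgs2, the inducible cyclooxygenase, stood at 11.7 to 85.4 CPM in HRO, 18.2 in HRY.4, 384 in HRY.5 and 487 in HRY.6 (log2 -4.20, adjusted p = 0.000839). Nr4a1 and Btg2, further immediate early genes, and Ccl3, a chemokine, were called lower by 7.98, 1.26 and 4.02, each with HRY.4 below all HRO samples or level with the lowest. Nr4a1 stood at 22.4, 14.9, 0, 62.7 and 120 CPM in HRO.7+8, HRO.9, HRO.10, HRO.11 and HRO.12, against 63.7 and 65.6 in HRY.5 and HRY.6. Ccl3 stood at 25.4, 12.4, 3.88, 72.6 and 63.8 CPM in the same HRO order, against 61.3 and 88.05. For both genes HRO.11 and HRO.12 thus lay near HRY.5 and HRY.6 or above them. With no pool term and HRO.10 left out, Egr1, Nr4a1, Ccl3 and Btg2 stood at 0.02, 0.65, 0.12 and 0.14. The mature neutrophils of HRY.5 and HRY.6 lay mainly in cluster 1, those of HRY.4 in cluster 7, of HRO.10 in cluster 15, of HRO.7 and HRO.8 in cluster 30, and of HRO.9, HRO.11 and HRO.12 in cluster 4.

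Progenitors rest on fewer cells, 42 in HRO.10 and 94 to 455 in the other samples. Of 9877 genes tested 68 (0.688%) were called, 31 higher (0.314%) and 37 lower (0.375%), and 5 (0.0506%) differed from the WTO to WTY difference. With classes taken from clusters 7 genes were called, 6 of them among the 68. Clusters 13 and 26 were led by progenitor markers, and clusters 2, 11 and 20 by monocyte markers. Of the cells gated as progenitors, cluster 11 held 50.4% in both HRO.7 and HRO.8, cluster 2 held 52.4% in HRO.10 and 13.2% to 34% in HRO.9, HRO.11, HRO.12, HRY.5 and HRY.6, and cluster 20 held 38.6% in HRY.4. In 15 of the 31 every HRO sample lay above every HRY sample, against 4.22% of all genes, and in 2 of the 37 every one lay below, against 1.48%. The higher genes included membrane proteins of the interferon response and of adhesion.

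Ifitm1 stood in progenitors at 534 CPM in HRO.7+8, 371 in HRO.9, 475 in HRO.10, 189 in HRO.11 and 386 in HRO.12, against 40.6, 69.5 and 30.5 in HRY.4, HRY.5 and HRY.6 (log2 3.46 ± 0.33, adjusted p = 1.363e-05). Ifitm3 stood at 1028, 434, 731, 403 and 419 CPM in the same HRO order, against 167, 111 and 84.5 (log2 2.92 ± 0.28, adjusted p = 1.363e-05). Both differences exceeded those between WTO and WTY, by 3.22 and 2.09 (adjusted p of 0.000667 and 0.00903). Selp, the adhesion molecule P-selectin, ranged from 12.8 to 39.1 CPM in HRO and from 0.696 to 1.21 in HRY (log2 4.81, adjusted p = 0.00365), and was also called with no pool term and HRO.10 left out (adjusted p = 0.0047). The progenitors of the HRY samples held 1278254 to 1649746 UMIs, so their Selp levels rest on a few UMIs. Without HRO.10 but with the pool term, the log2 difference of Selp was -3.70, and 0 of the 19 called progenitor genes described here kept their call.

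Ly6a, the stem cell antigen Sca-1, which interferon raises, stood at 434, 58.2, 171, 26.4 and 19.5 CPM in HRO.7+8, HRO.9, HRO.10, HRO.11 and HRO.12, against 8.49, 8.35 and 7.04 in HRY (log2 4.49, adjusted p = 0.0133). H2-Q7 and H2-Q6, non-classical MHC class I genes that are near copies of each other, ranged from 157 to 582 CPM against 32.7 to 52.4 and from 58.7 to 168 against 11.1 to 16.4 (adjusted p of 0.0128 and 0.0479). Xaf1 ranged from 10.5 to 49.8 CPM against 2.42 to 6.26, and Ldha from 420 to 612 against 248 to 295. Every gene of this paragraph was called and lay wholly above in HRO. Rtp4 (log2 3.46) and Ctsc (log2 2.31) were called but overlapped, and without HRO.10 the fitted difference of Rtp4 was -4.69. With the pool term left out as well it was 2.13, and Rtp4 was not called.

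Genes of granulocyte maturation were called lower in progenitors. The primary granule list had 3 of 9 members lower and 1 higher (Ctsc), the secondary and tertiary granule list 3 of 18 lower, and the 10 neutrophil transcripts 4 lower, against 0.375% of all genes lower and 0.314% higher. The acute phase list had 4 lower (S100a8, S100a9, S100a11 and Pglyrp1) and 2 higher (Ifitm1 and Ifitm3). S100a8 stood at 12840, 12320, 3290, 13040 and 6654 CPM in HRO.7+8, HRO.9, HRO.10, HRO.11 and HRO.12, against 22620, 10210 and 9744 in HRY.4, HRY.5 and HRY.6 (log2 -1.66 ± 0.22, adjusted p = 0.000754). Camp, an antimicrobial peptide, stood at 956 CPM in HRO.10 and 4123 to 7658 in the other HRO samples, against 5000 to 5289 in HRY. HRO.10 and, less so, HRO.12 were low, and the other HRO samples lay above HRY for Camp. Fcnb, Ngp, Cebpe and Elane are respectively a lectin, a granule protein, the factor of late granule formation and neutrophil elastase. They were called lower by 1.55, 1.32, 1.33 and 1.01, with HRO.10 the lowest for each. Each overlapped between the groups. HRO.7+8, HRO.9 and HRO.11 lay above every HRY sample for Ngp and Cebpe, and HRO.11 and HRO.12 for Elane. Mpo, the myeloperoxidase, was called lower by 0.69 (adjusted p = 0.0361) but overlapped as well. Ptgr1, a prostaglandin reductase, also called, lay wholly below at 37.3 to 95.3 CPM against 115 to 124 (log2 -1.80, adjusted p = 0.000754). With no pool term and HRO.10 left out, Camp, Cebpe and Ngp stood at 0.20, 0.14 and 0.49, and 24 genes were called, 6 of them among the 68.

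T or NK cells could be compared in 5 HRO and 2 HRY samples, since HRY.6 held 18 such cells. Of 3722 genes 0 passed (0.0%) by edgeR's quasi-likelihood test, 189 had an unadjusted p under 0.05, and DESeq2 called 1. Klrk1, the activating receptor NKG2D, stood at 96.7, 84.7, 80.8, 209 and 91.0 CPM in HRO.7+8, HRO.9, HRO.10, HRO.11 and HRO.12, against 335 in HRY.4 and 644 in HRY.5 (log2 -2.84, adjusted p = 0.376). Dok2, an adaptor that damps T cell signals, ranged from 63.3 to 93.3 CPM against 94.2 and 294. Gtf2i, a transcription factor, ranged from 87.7 to 367 CPM against 31.4 and 36.8, and Samsn1, an adaptor of lymphocytes, from 95.5 to 261 against 31.4 and 36.8. The class held 95541 UMIs in HRY.4 and 54374 in HRY.5, so the HRY levels of Gtf2i and Samsn1 rest on a few UMIs. None of these 4 genes overlapped, but 15.2% and 3.39% of all genes tested lay wholly above or below in this small comparison. T or NK cells of HRY.4 lay in cluster 19 (98.7%), those of HRO.7 and HRO.8 in cluster 16 (93.3% and 96.4%), and the other samples in both. Cd38 and Iigp1 ranged from 58.1 to 155 CPM against 41.9 and 55.2, and from 30.1 to 106 against 0 and 18.4.

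B lineage cells could be compared in 3 HRO samples (HRO.7+8, HRO.9 and HRO.11) and 3 HRY samples. Of 7346 genes 0 passed (0.0%), 394 had an unadjusted p under 0.05, and DESeq2 called 10. Without HRO.9 edgeR called 112. The genes with the smallest p were lower in HRO and belong to no list used here. Nrgn, a calmodulin-binding protein best known in neurons, stood at 0 CPM in HRO.7+8, 2.91 in HRO.9 and 0 in HRO.11, against 50.7, 407 and 172 in HRY.4, HRY.5 and HRY.6 (log2 -7.07, adjusted p = 0.0774). Pgm2l1, which makes glucose-1,6-bisphosphate, ranged from 1.495 to 5.82 CPM against 44.4 to 57.3 (log2 -4.40, adjusted p = 0.0774). WTO and WTY held Nrgn at 34.05 to 122 CPM and Pgm2l1 at 40.1 to 66.5, so the HRO samples were the low ones, and the difference between the differences passed for both (-8.43 and -3.93, adjusted p of 0.00203 and 0.0258), among 4 genes in all (0.0545%). Rsph1, of the ciliary radial spoke, and Capsl, a calcium-binding protein, were likewise at 2.91 CPM or below in HRO and at 11 to 60.2 CPM in HRY, not called. Zbtb38, a zinc finger factor that binds methylated DNA, and Icam1, an adhesion molecule, ranged from 123 to 204 CPM against 6.34 to 11.5 and from 64.0 to 105 against 6.34 to 22, also not called. None of these 6 genes overlapped between the groups, but 7.88% and 10.6% of all genes tested lay wholly above or below with 3 samples each. HRY.4 held 481 of the HRY cells of this class, and HRY.5 and HRY.6 27 and 23. The cells of HRY.5 and HRY.6 gave 90901 and 87217 UMIs, so their levels of Zbtb38, Icam1 and Capsl rest on a few UMIs. B lineage cells of HRO.7 and HRO.8 lay in cluster 29 (98.7% and 96.3%). Those of HRO.9, HRO.11, HRY.5 and HRY.6 lay mainly in cluster 17, and those of HRY.4 in clusters 17, 21 and 33.

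Summed over the whole marrow, 326 of 12653 genes were called (2.58%), 231 higher (1.83%) and 95 lower (0.751%). For 11 genes (0.0869%) this difference differed from that of WTO and WTY. In such a sum, more cells of a type and more RNA per cell cannot be told apart. In 55 of the 231 and 15 of the 95 the groups did not overlap, against 4.5% and 1.41% of all genes. Saa3 stood at 642 CPM in HRO.7+8, 122 in HRO.9, 518 in HRO.10, 45.7 in HRO.11 and 121 in HRO.12, against 5.10, 1.87 and 2.70 in HRY (log2 7.34 ± 0.82, adjusted p = 0.000866). C1qb, a complement gene of macrophages, ranged from 17.1 to 147 CPM against 0.208 to 3.25, Ms4a6d, a myeloid surface protein, from 16.4 to 136 against 7.69 to 14.6, and Cd38 from 12.6 to 66.4 against 2.70 to 11.1, all called and wholly above. Fcgr1, the high-affinity receptor for immunoglobulin G, was called but overlapped, at 9.60 to 89.2 CPM against 1.66 to 10.7, as was Ly6a.

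Elane, Mpo and Fcnb were called lower in whole marrow by 2.01, 1.96 and 1.62, with HRO.10 the lowest sample for each. HRO.7+8 and HRO.12 also lay below every HRY sample for Elane and Mpo, and HRO.11 and HRO.12 for Fcnb, while the remaining HRO samples lay within the HRY range or above it. The share of progenitors, which make Elane and Mpo, was 2.41% in HRO.10. Ighg2c, an immunoglobulin heavy chain, was called lower by 9.28, although HRY.4 alone was high, at 68.4 CPM against 0 in HRY.5, 0.159 in HRY.6 and 0 to 1.21 in HRO. WTO samples reached 245 CPM. Leaving out the pool term and HRO.10, 65 genes were called, 14 of them among the 326. Tet2, the gene named in the series text for the chronic samples, was not called in whole marrow (log2 0.12 ± 0.14, adjusted p = 0.708), monocytes (log2 -0.09), either neutrophil class or progenitors, and ranged from 34.5 to 89.3 CPM in HRO and from 27.1 to 82.1 in HRY.

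The shares of cell classes overlapped between the groups except for T or NK cells. These made up 10.1%, 7.18%, 3.96%, 7.16% and 9.89% of HRO.7+8, HRO.9, HRO.10, HRO.11 and HRO.12, and 3.31%, 2.08% and 1.24% of HRY.4, HRY.5 and HRY.6. The means were 7.66% ± 2.51 (SD, n = 5) and 2.21% ± 1.04 (SD, n = 3), with every HRO sample above every HRY sample. The exact two-sided permutation p was 0.0536, or 0.67 after adjustment over 15 classes, where the smallest p that the 56 splits allow is 0.0179. Within pool WBM_3 the share was 3.96% in HRO.10 against 2.08% and 1.24%. WTO and WTY samples held 3.25% ± 1.17 (SD, n = 4) and 1.95% ± 0.55 (SD, n = 3).

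Immature neutrophils averaged 33.0% ± 3.65 of HRO and 27.2% ± 3.37 of HRY cells (exact permutation p = 0.107), and mature neutrophils 15.4% ± 6.93 and 24.4% ± 15.4 (exact permutation p = 0.268). HRY.4 held 6.66% mature neutrophils and HRY.5 and HRY.6 33.1% and 33.6%, so the HRY group was itself split. Monocytes made up 10.2% to 32.6% of HRO and 11.4% to 25.6% of HRY samples, and progenitors 2.41% to 10.7% and 6.75% to 13.6%. B lineage cells reached 21.2% in HRY.4 (exact 95% binomial interval 19.55% to 22.96%, counting error only) and 2.44% and 1.59% in HRY.5 and HRY.6. No class passed after adjustment. The mitochondrial filter had removed 7.07% to 18.6% of HRO and 1.004% to 7.76% of HRY cells. Its part in the shares was not tested. Erythroid genes were not tested, since 1 HRY sample held 20 such cells or more.

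**Figure D4:**
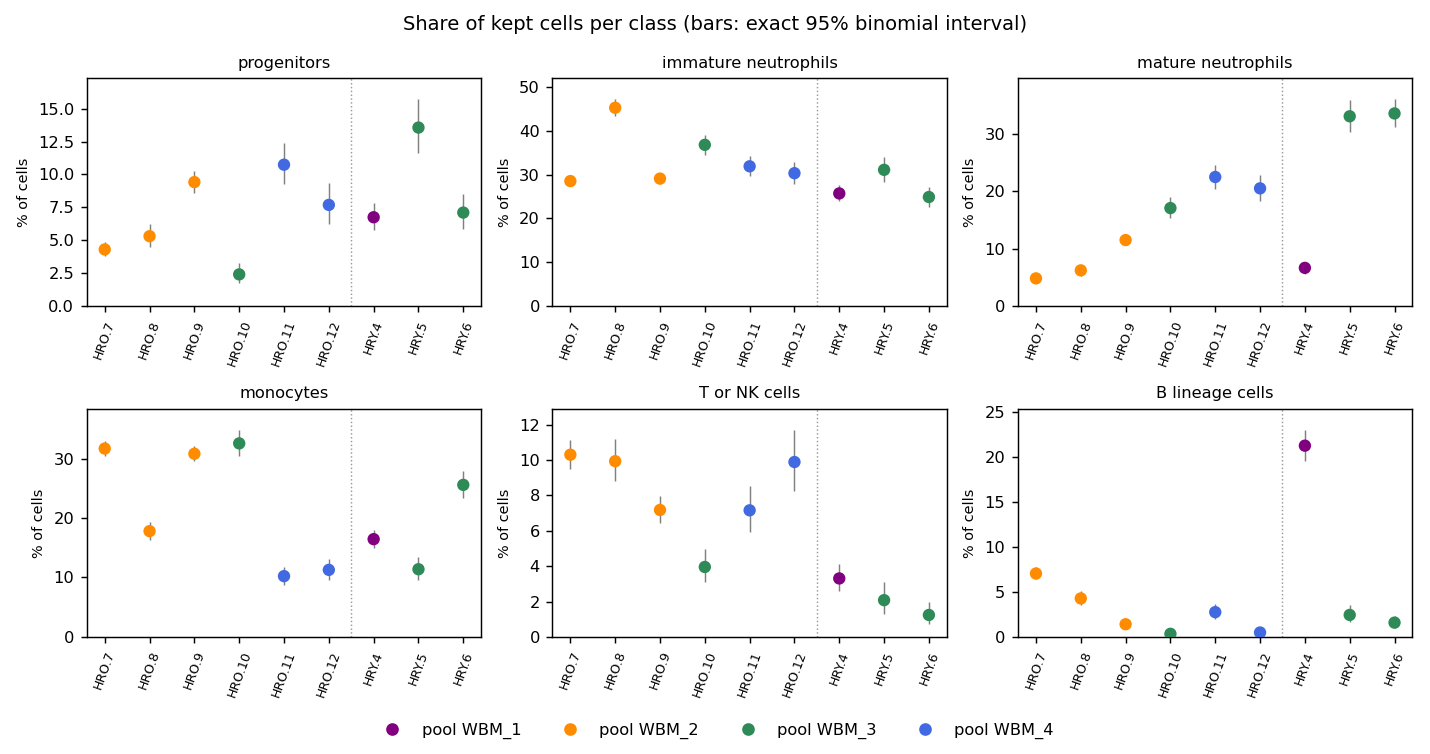
Percent of kept cells in 6 classes, 1 point per hashtag sample on linear axes that start at 0, coloured by pool, with exact 95% binomial intervals that cover counting error only. T or NK cells are the class of the 6 in which every HRO point (3.96% or more) lies above every HRY point (3.31% or less), and HRY.4 stands apart from HRY.5 and HRY.6 in mature neutrophils and B lineage cells.

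The number of genes called moved with HRO.10 and with the pool term. Without HRO.10, 1 gene was called in whole marrow, 1 in monocytes and 0 in immature neutrophils, mature neutrophils and progenitors, where 484, 396 and 819 had an unadjusted p under 0.05. HRO and HRY then share no pool. Within WBM_3 alone, where the difference is 1 HRO against 2 HRY samples, 569, 1291, 271, 617 and 280 genes were called in whole marrow, monocytes, immature neutrophils, mature neutrophils and progenitors. With Ddx3y status as a further term 77, 309, 16, 29 and 38 were called. Monocytes had the most calls with the Ddx3y term. Within WBM_3, HRO.10 stood at 2.38 CPM for Ddx3y and every other hashtag at 69.5 to 90.15. In the pool that holds both groups, Ddx3y status and the HRO to HRY difference therefore cannot be told apart.

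**Figure D5:**
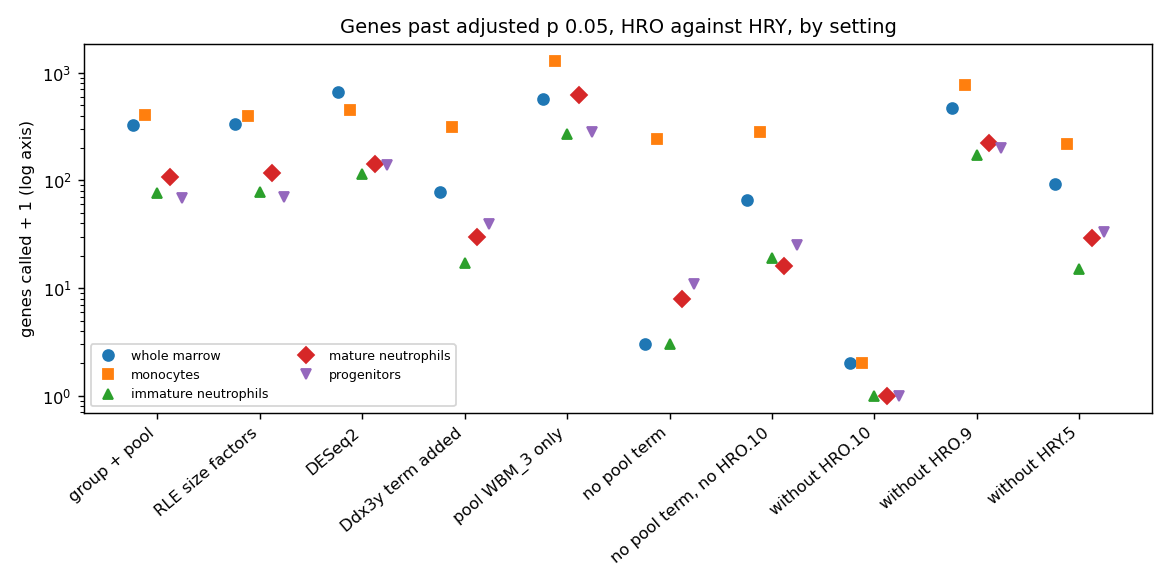
Number of genes past an adjusted p of 0.05 for HRO against HRY, plus 1, on a log axis, for 5 classes (symbols) under 10 settings of the fit. The counts fall to 0 or 1 without HRO.10, and monocytes have 283 calls when the pool term and HRO.10 are both left out, against 15 to 65 for the other 4.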

How the data were processed

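Cells were total marrow after red cell lysis, tagged by hashtag antibodies and read with a 10x 3′ version 3 kit. The deposited matrices hold the authors' raw UMI counts per gene and cell, and the hashtag tables raw counts of each tag. Per the file headers, Cell Ranger 3.0.0 made the matrices of pool WBM_1 and 3.1.0 the others. The submitters' processing notes name bcl2fastq, Cell Ranger, Seurat and build mm10.

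Hashtags were called per library with HTODemux (Seurat 5.3.0, counts normalised across cells, quantile 0.99). Of 78716 barcodes, 13033 were doublets by hashtag and 7739 negative, and no other doublet caller was run. Among 57944 singlets, 19 lower-UMI copies of barcodes found in both WBM_3 libraries, 4538 cells under 300 genes and 10363 with 10% mitochondrial UMIs or more were left out, which kept 43024 cells of 20 hashtags. The 2 WBM_3 libraries shared 2078 barcodes, of which 12 were singlets in both and 4 had the same hashtag in both. A cell was put in the class with the highest mean marker score (15 marker lists, minimum 0.25, gap 0.1). Of the cells, 4.62% stayed without a class and 4.63% lay near the cut. Leiden clusters gave the same class for 90.8% of the cells that had one. The clusters were named by the same marker scores, so this does not check the gate independently. Among cells with a class and 1000 UMIs or more, 86.9% kept it when thinned to 1000 UMIs.

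Counts summed per sample and class (20 cells or more) were tested with edgeR 4.0.16's quasi-likelihood test (R 4.3.3, terms for group and pool, groups HRO, HRY, WTO, WTY and the chronic samples HRO.5 and HRO.6 fitted together, TMM, filterByExpr, Benjamini-Hochberg adjustment at 0.05). The SE of a log2 difference is its size over the root of the F statistic. Fits used 17 samples at most, with HRO.7 and HRO.8 summed to 1 where 6 HRO samples had been planned. The sources do not say that the tags of HRO.7 and HRO.8 mark 1 animal. On simulated counts the monocyte test recovered 66% of known 2-fold and 99% of 4-fold changes, with 7 false calls in 9466 unchanged genes. The progenitor test recovered 49% and 95%, with 9 in 9465. The simulated counts came from the fitted model of group and pool, with the same fold in every HRO sample. They therefore do not cover HRO samples that disagree, and do not show how reliable the calls in the real data are. Alternatives included DESeq2 1.42.0, other terms, filters, classes and samples left out.

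The genes named are among those given by a rule: in each class the 8 largest called rises and falls with 20 CPM or more in the higher group, 4 per direction by p where none was called, 4 members of each list, and a few genes named in every class. The rule gave 89 to 101 genes a class, of which 6 to 38 are described. The samples, lists and tests were chosen with earlier results of these data known. Gene positions come from GENCODE M21 and promoter windows from RefSeq (GRCm38.p6). HR.7 and HR.AE, whose role the labels do not give, entered no comparison.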

Additional observations from a re-analysis of the deposited data

Results flagged for a closer look

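Over 126 sets of HRO values, 20 had a sample far from the other 4 by Dixon's criterion, which chance gives in about 1 in 20 sets. The sets were the genes described in each class except B lineage cells, which had too few HRO samples. The class shares whose ranges are given in the next section were sets too, and none of them was flagged. HRO.7+8 was the high sample for C1qb (147.2 CPM) and Ly6a (662.0) in whole marrow, for Ly6a (1088), Cxcl9 (331.6) and Iigp1 (444.9) in monocytes, for Upp1 in mature neutrophils (543.9) and for Iigp1 in progenitors (248.1). HRO.10 was the high sample for Csf2rb in monocytes (300.9 CPM), for Csf1r (27.64), Ctss (74.06) and Tet2 (55.64) in immature neutrophils, for Selp (39.11) and Tet2 (85.33) in progenitors and for Gtf2i in T or NK cells (366.8). It was the low sample for Klf2 in immature neutrophils (245.0 CPM). HRO.12 was high for Socs3 in monocytes (83.67 CPM) and Mogat2 in immature neutrophils (35.55), and HRO.11 for Klrk1 in T or NK cells (209.4). HRO.9 was high for Ddx3y (51.46 CPM) and low for Xist (5.316) in whole marrow.

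The difference between HRO and HRY differed from that between WTO and WTY, by the interaction contrast of edgeR's quasi-likelihood test, for 11 genes in whole marrow, 104 in monocytes, 8 in immature neutrophils, 1 in mature neutrophils, 5 in progenitors and 4 in B lineage cells. The log2 difference of differences in whole marrow was 7.212 for Saa3, 3.562 for Fcgr1, 3.381 for Ms4a6d and -10.15 for Ighg2c. In monocytes it was 8.003 for Saa3, 6.147 for F11r, 5.796 for Cd38, 5.605 for Ifitm1, 4.239 for Socs3, 3.398 for Bst1 and 3.053 for Clec4e. Smaller positive values were found there for Lcn2 (2.158), Bcl3 (1.627), Il4ra (1.534), Ctsc (1.35), Prtn3 (0.9857), Csf2rb (0.8777) and Pkm (0.7163), and negative ones for Mtss1 (-3.825), Stxbp6 (-2.439), Padi2 (-2.032) and Irf8 (-0.9197). Klf2 (1.226) and Mogat2 (-1.574) passed in immature neutrophils, Ifitm1 (3.216), Ifitm3 (2.092) and Fcnb (-1.094) in progenitors, and Nrgn (-8.427) and Pgm2l1 (-3.928) in B lineage cells.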

How the results depend on the processing

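Counts of called genes are given in the order whole marrow, monocytes, immature neutrophils, mature neutrophils, progenitors. With no filter on low counts they were 941, 812, 451, 258 and 32 (T or NK cells 16, B lineage cells 86), with no pool term 2, 244, 2, 7 and 10 (B lineage cells 183), and with HRO and HRY samples only 7, 37, 11, 45 and 0. Within pool WBM_3 they were 569, 1291, 271, 617 and 280. With Ddx3y status as a term whole marrow, immature neutrophils, mature neutrophils and progenitors had 77, 16, 29 and 38 calls. DESeq2 called 655 genes in whole marrow, 113 in immature neutrophils and 138 in progenitors (T or NK cells 1, B lineage cells 10). Classes from clusters gave 39 calls in immature neutrophils and 7 in progenitors. With no pool term and HRO.10 left out (chosen after seeing the data) there were 65 in whole marrow, 18 and 15 in immature and mature neutrophils and 24 in progenitors. Differences between differences passed for 0, 5, 0 and 0 genes in whole marrow, monocytes, immature neutrophils and progenitors with no pool term.

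Leaving out 1 sample at a time gave 1 to 533 calls in whole marrow, 1 to 765 in monocytes, 0 to 173 and 0 to 221 in immature and mature neutrophils, 0 to 198 in progenitors, 0 to 1 in T or NK cells and 0 to 112 in B lineage cells. The lowest counts in whole marrow, monocytes, both neutrophil classes and progenitors came without HRO.10. In monocytes, mature neutrophils and progenitors these counts moved by over 1.5 times without any of HRO.7+8, HRO.9, HRY.4, HRY.5 or HRY.6. Immature neutrophils moved so without HRO.7+8 (171), HRO.9 (173) or HRY.5 (14), and whole marrow without HRO.7+8 (533) or HRY.5 (91). Without HRO.7+8, monocytes had 705, mature neutrophils 214, progenitors 166 and B lineage cells 1 call, and without HRO.9 whole marrow had 467. Without HRY.4, HRY.5 and HRY.6 monocytes had 212, 218 and 214 calls, mature neutrophils 51, 28 and 24, and progenitors 38, 32 and 39. The counts of differences between differences ranged over 1 to 55, 30 to 355, 0 to 23, 1 to 78 and 1 to 86 in the 5 classes in the order above, over 1 to 222 in B lineage cells and 0 to 0 in T or NK cells. Without HRO.7+8 they were 40 in whole marrow, 244 in monocytes, 24 in mature neutrophils and 19 in progenitors.

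Differences of shares, in percentage points, ranged on leaving out 1 sample from -3.32 to 0.09 for progenitors, 4.60 to 7.71 for immature neutrophils, -17.91 to -4.45 for mature neutrophils, 0.91 to 8.01 for monocytes, 4.84 to 6.38 for T or NK cells, -9.70 to 0.12 for B lineage cells and -0.04 to 2.80 for erythroid cells. That of monocytes was -0.86 with cells thinned to 1000 UMIs.

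Of 98 called genes described, all 98 kept their call with RLE size factors, 90 of 94 with DESeq2, 57 with the Ddx3y term, 30 with no pool term and 1 without HRO.10. The log2 differences that changed sign were, without HRO.10, Cd38 in monocytes (-2.08), Ctss in immature neutrophils (-0.04478), Xaf1 in mature neutrophils (-3.526), and Selp (-3.696) and Rtp4 (-4.689) in progenitors. Over all such removals Ctss reached 2.814, Xaf1 4.382, Selp 5.297 and Rtp4 3.922. Classes from clusters gave Prtn3 (-0.1768) and Ms4a3 (-0.1278) in monocytes, and Csf1r (-0.1588) and Ctss (-0.08112) in immature neutrophils. Dropping the pool term gave S100a8 in monocytes (-0.2563), Ctss in immature neutrophils (-0.1209), Nr4a1 in mature neutrophils (0.352) and Ngp in progenitors (0.2619). Leaving out HRO.10 as well gave S100a8 (-0.1316) in monocytes, Csf1r (-0.6917) and Ctss (-1.079) in immature neutrophils, Egr1 (0.02118), Nr4a1 (0.6539), Ccl3 (0.1206) and Btg2 (0.143) in mature neutrophils, and Camp (0.1969), Cebpe (0.1444) and Ngp (0.4891) in progenitors. The cause was not tested, except that without HRO.10 no pool holds both groups, by construction.

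No paired analysis was possible because HRO.7 to HRO.12 and HRY.4 to HRY.6 share no replicate number. The alternatives planned for erythroid cells were not run. Cell numbers were low in HRY.6, with 18 T or NK cells and 23 B lineage cells.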

Other observations

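The genes that present peptides to T cells differed widely among the HRO samples. The summed MHC class I and peptide processing list stood in mature neutrophils at 15916 CPM in HRO.7+8, 4647 in HRO.9, 9471 in HRO.10, 10026 in HRO.11 and 5541 in HRO.12, against 3021, 4869 and 5494 in HRY.4, HRY.5 and HRY.6. In monocytes it was 12569, 5860, 8538, 8938 and 5784 CPM in the same HRO order, against 5167, 4474 and 5566. HRO.7+8 was the highest sample in both classes, and the groups overlapped in mature neutrophils but not in monocytes. In monocytes 1 of 18 members, B2m, was called, against 4.08% of all genes tested. The MHC class II list in monocytes was 13261 CPM in HRO.7+8, 1493 to 3556 CPM in the other samples of both groups, and had no member called by edgeR's quasi-likelihood test.

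Samples outside the comparison gave further values for the monocyte genes. In the chronic samples HRO.5 and HRO.6 Saa3 stood at 171.63 and 121.3 CPM, Cd38 at 4.9 and 6.74, Ifitm1 at 88.27 and 77.5, and Padi2 at 40.86 and 25.12. In HR.7, which the labels put in no group, the same genes stood at 36.49, 9.78, 71.07 and 37.72 CPM.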
